A study of Mus musculus with 36 samples.

Results

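The genes that load triglyceride onto very low density lipoprotein (VLDL), build triglyceride and break it down again were followed in primary mouse hepatocytes. They comprised 10 genes, chosen by name, of the 52230 genes with values: Mttp, Apob and Tm6sf2 of VLDL assembly, the apolipoprotein genes Apoc3, Apoa4 and Apoa5, the triglyceride synthases Dgat1 and Dgat2, and the lipases Pnpla2 and Pnpla3. RNA was sequenced in 36 libraries from 10 conditions, each run in hepatocytes of 3 female mice of the GCKR-P446L-EMI-B6N strain aged 14 weeks, and n = 3 mice throughout. Mice 1 and 2 were labelled Gckr-446L and mouse 3 Gckr-446P/L, and the hepatocytes were used as cells deficient in the glucokinase regulatory protein (GKRP).

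Glucokinase (GK) traps glucose in the hepatocyte by phosphorylating it, and GKRP holds GK inactive in the nucleus. The 446L form of human GKRP is known for its association with raised plasma triglyceride. The cells received no vector (untreated), or an adenoviral vector for human GKRP with proline (hP) or leucine (hL) at the variant residue, for mouse GKRP with either residue (mP, mL), for GK, or for GK together with 1 of the 4 GKRP vectors. All cells were cultured for 24 h at 5 mM glucose with 10 nM dexamethasone and 10 nM insulin, then kept for 4 h at 25 mM glucose. Untreated cells and cells with GK alone were each present as 2 cultures per mouse, whose reads were summed. No empty virus was among the samples, so an effect of GKRP and an effect of the viral vector cannot be told apart against untreated cells.

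Library totals ran from 3924674 to 10046158 reads. Counts-per-million values (CPM) were reads scaled to the library total of the genes passing the low-count filter, after TMM scaling between libraries. Those of Pklr and Txnip, known to respond to glucose, averaged 89.2 and 61.4 in untreated cells and 176 and 239 with GK alone. Gckr, the GKRP gene, averaged 57.1 CPM in untreated cells, 17600 with mP and 14300 with mL. A library labelled as GK alone, the first culture of mouse 3, held 1460 CPM of Gckr against 51.8 to 98.0 in the other 5 cultures of that condition. The reference of the mouse holds no human GCKR, so the hP and hL labels were not checked. Of 11 hepatocyte markers 10 had values, and each of these averaged at least 1 CPM. Their sum was 86000 to 154000 CPM in the 30 samples of a mouse and a condition. Macrophage markers (11 of 11 detected) summed to 258 to 364 CPM, of which Cd68 alone had 119 to 275 CPM. Endothelial markers summed to 61.4 to 119 CPM, stellate or fibroblast markers to 22.7 to 156 and cholangiocyte markers to 17.4 to 248. The 5 adipocyte markers summed to at most 0.466 CPM. Enterocytes also make Mttp, Apob and Apoa4. The 5 enterocyte markers summed to 45.3 to 81.9 CPM, most of it from Apobec1 (33.9 to 71.9 CPM). The medians of Fabp2, Vil1 and Lct were 7.09, 2.27 and 0.167 CPM, and Cdx2, the defining intestinal factor, had no read in any library.

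In the liver, microsomal triglyceride transfer protein, encoded by Mttp, lipidates apolipoprotein B as it enters the endoplasmic reticulum, and a particle carrying a single apolipoprotein B is secreted as VLDL. Tm6sf2 encodes a membrane protein needed for full lipidation of the particle. The triglyceride comes from the final acylation step, catalysed by the enzymes of Dgat1 and Dgat2. Pnpla2 encodes adipose triglyceride lipase, which opens the breakdown of stored triglyceride, and Pnpla3 encodes a related lipid droplet protein. Apolipoproteins C3, A4 and A5 ride on the secreted particles, where the C3 protein slows and the A5 protein speeds the removal of their triglyceride.

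Apoc3, Apoa4 and Apob had the highest levels of the 10 genes when length was taken into account. In transcripts-per-million units (TPM), averaged over 30 samples, Apoc3 stood first at 3580 (range 1320 to 5770). Apoa4 followed at 1140 TPM (398 to 1940), Apob at 276 (160 to 495) and Dgat2 at 136 (65.2 to 382). Mttp at 70.9 TPM, Apoa5 at 61.5 and Pnpla2 at 40.8 had overlapping ranges, and so had Pnpla2 and Dgat1 at 14.7. Tm6sf2 averaged 4.00 TPM and Pnpla3 0.345. Neighbours in this order overlapped in every case.

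Pnpla3 was at the limit of detection. It had 69 reads in all 36 libraries together, at most 6 in any of them and 0 in 7. On unscaled library totals, 3 reads equal 0.764 CPM in the shallowest and 0.299 CPM in the deepest library, for counting error only. The highest condition mean of Pnpla3 was 0.572 CPM, in untreated cells. It failed the filter on low counts and was not tested, so 9 of the 10 genes entered the comparisons.

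Among these 9 genes the highest condition mean was 1.2 to 1.61 times the lowest in CPM, and 1.48 to 3.54 times in TPM. The 3.54 was that of Tm6sf2, which had 17.6 TPM with GK and hP in mouse 1 and 4.83 and 3.96 in mice 2 and 3. Mttp, Tm6sf2 and Apoa4 had their highest mean with GK alone, and Apoa5 and Dgat2 their lowest in untreated cells. The plot of levels by sample shows all 10 genes.

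**Figure D1:**
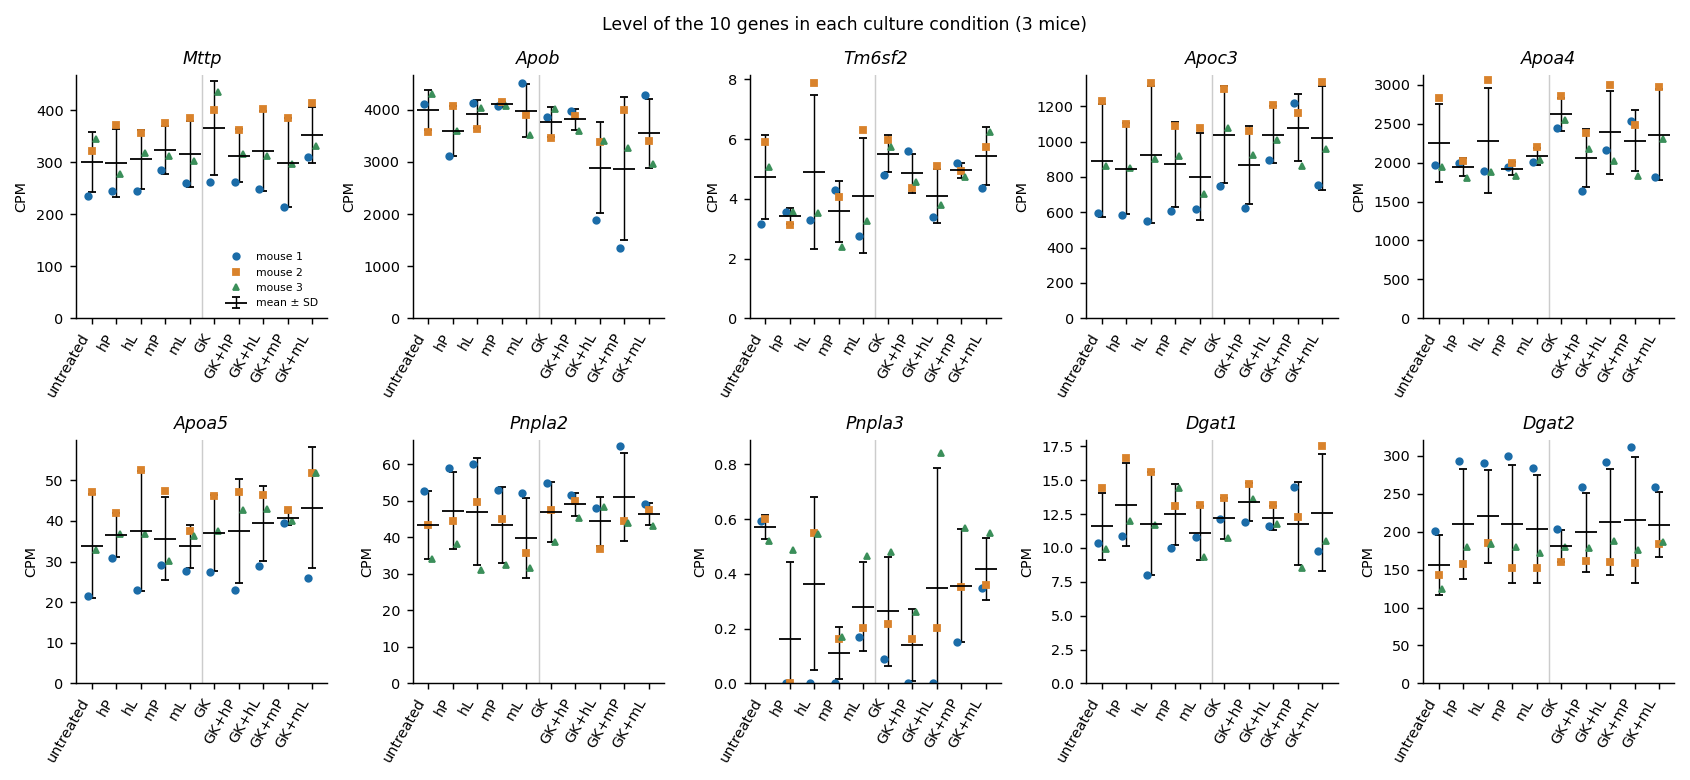
Levels of the 10 genes in CPM (vertical axes, each from 0) in the 10 conditions (horizontal axis), with a marker for each of 3 mice and the mean ± SD of the mice. Apob measured 1350 and 1880 CPM in 2 samples of mouse 1, and Dgat2 was higher in mouse 1 than in the other mice in every condition.

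Most of these genes differed more between the mice than between the conditions. Of the variance in log2 CPM over 30 samples, 78.1% lay between mice and 13.9% between conditions for Dgat2. The same shares were 73.4% and 13.1% for Mttp, 70.7% and 8.58% for Apoa5, 65.6% and 15.8% for Apoc3, and 58.7% and 14.1% for Pnpla2. The difference between mice was larger than that between conditions for 7 of the 9 genes, against medians of 28.7% between mice and 25.7% between conditions over all 12177 genes tested. Apob, with 4.59% between mice and 37.9% between conditions, and Tm6sf2, with 18.6% and 33.9%, were the exceptions. Samples with no structure would have 31.0% between conditions and 6.90% between mice, so the shares between conditions of these 2 genes were near that value. Mouse 2 had the highest mean of 7 genes, and mouse 1 that of Pnpla2 and Dgat2. Mouse 3, of the other labelled genotype, had the highest mean of none.

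A gene was called where the fitted fold change was at least 1.3 or at most 0.7 and the adjusted p of edgeR's quasi-likelihood test, corrected after Benjamini and Hochberg across the 12177 genes that passed the filter, was under 0.05. No pair of a gene and a comparison was called among the 153 (9 genes in 17 comparisons), by this test or by DESeq2, and 1 of the 153 had an unadjusted p under 0.05. The 95% confidence intervals reached between 0.195 and 0.775 to either side of the fitted log2 value, so smaller differences were not detectable here. These intervals are not adjusted for the number of genes, so somewhat larger differences could miss a call too. When the mouse entered as a block, 4 of the 153 were called, all for Dgat2, and 20 had an unadjusted p under 0.05. In those block fits 1.99% of all genes were called for GK alone against the 5 combined groups, 0.361% against untreated cells, 0.312% for GK over the 5 GKRP states, 4.16% for the 4 GKRP vectors against untreated cells and 4.34% for the same vectors with GK. The interaction gave 0.00%, the 446L and 446P forms 0.131% (human, with GK), 0.214% (mouse, with GK) and 0.485% (4 pairs). In bulk RNA, fewer cells of a type and less RNA per cell cannot be told apart.

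**Figure D2:**
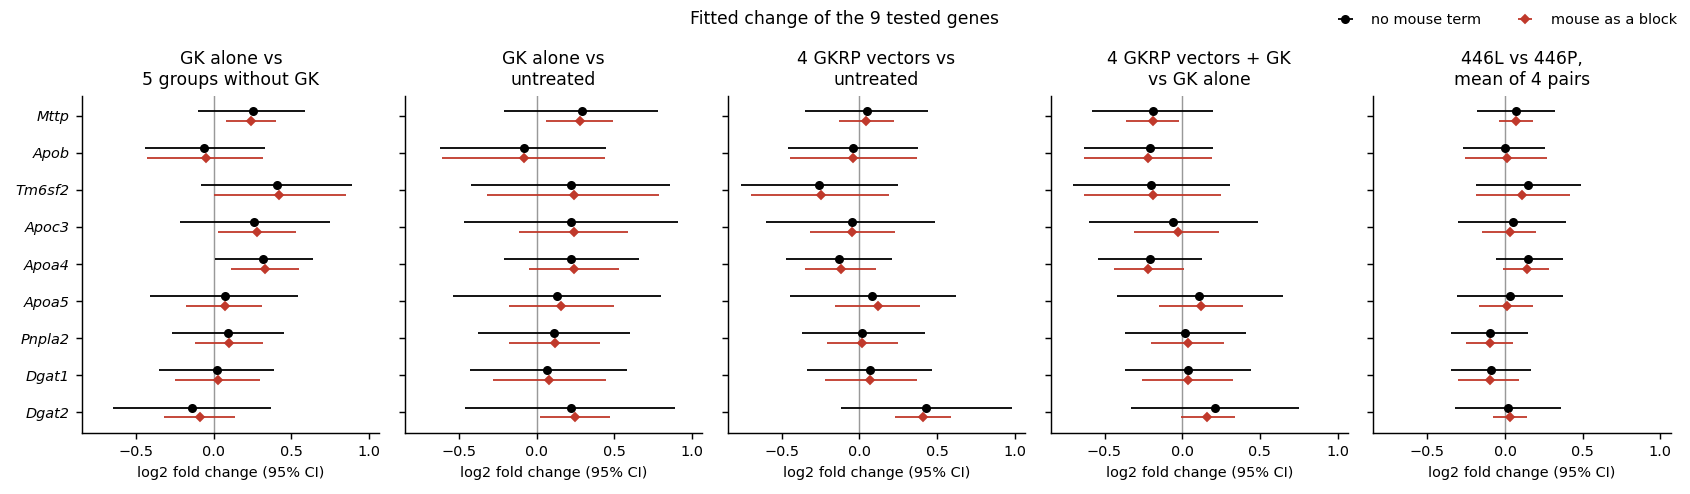
Fitted log2 fold change with its 95% confidence interval (horizontal axes) for the 9 tested genes in 5 comparisons, without a term for the mouse (black circles) and with the mouse as a block (red diamonds). Dgat2 in the third panel, at 0.43 and 0.41, is the only interval of the block fit there that leaves out 0.

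With GK alone Mttp stood slightly higher than in untreated cells in every mouse, and the 95% interval of the change included 0 only where the mouse was left out of the fit. Mttp measured 263, 401 and 435 CPM in mice 1, 2 and 3 with GK alone. Untreated cells of the same mice had 236, 321 and 345 CPM, and the groups overlapped although each mouse was higher with GK. The question of this comparison was what extra GK does to the cells, set against the 5 groups with endogenous GK combined, so that cells with and without a vector stood in the control. Across all genes 0.427% were called in it, and none of the 9 genes was. The fitted log2 change of Mttp was 0.25 (SE 0.17, 95% CI -0.10 to 0.59, adjusted p = 0.875 by edgeR's quasi-likelihood test). Against untreated cells alone, where 0.00821% of all genes were called, it was 0.29 (SE 0.24). With the mouse as a block the values for Mttp were 0.24 (95% CI 0.08 to 0.40, unadjusted p = 0.00465 and adjusted p = 0.0956 by edgeR) and 0.28 (95% CI 0.06 to 0.49, unadjusted p = 0.0151 and adjusted p = 0.675 by edgeR), and it was not called in either.

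Tm6sf2 had a larger fitted change but was measured on few reads, with 14 to 55 per library. It had 4.81, 5.96 and 5.75 CPM with GK alone and 3.17, 5.92 and 5.07 CPM in untreated cells. Its log2 change against the 5 combined groups was 0.41 (SE 0.24, 95% CI -0.08 to 0.89, adjusted p = 0.757 by edgeR's quasi-likelihood test), positive in 3 of 3 mice. The interval holds both no change and an increase above the 1.3-fold needed for a call.

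Apoa4, whose apolipoprotein is secreted by liver and gut, gave the smallest p of the set for GK alone against the 5 combined groups. With GK alone it measured 2450, 2860 and 2550 CPM. In untreated cells the values were 1970, 2830 and 1940 CPM, so the groups overlapped through mouse 2. The change against the 5 combined groups was 0.32 on the log2 scale (SE 0.15, 95% CI 0.01 to 0.64), positive in 3 of 3 mice, with an unadjusted p of 0.0440 and an adjusted p of 0.611 by edgeR's quasi-likelihood test. It was not called. With the mouse as a block the adjusted p was 0.0956 for Apoa4 and 0.0956 for Mttp, which did not pass the threshold either.

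Apoc3, the inhibitor of triglyceride clearance, had 749, 1300 and 1080 CPM with GK alone against 593, 1230 and 860 CPM in untreated cells. Every mouse was higher, and the groups overlapped widely, with mouse 2 far above mouse 1 in both. Its log2 change against the 5 combined groups was 0.26 (SE 0.24, adjusted p = 0.969 by edgeR's quasi-likelihood test), and it came to 0.00 when the length of the transcripts counted in each library was taken into account.

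The other 5 tested genes had smaller fitted changes. Apob, Apoa5, Pnpla2, Dgat1 and Dgat2 had log2 changes between -0.14 and 0.09 against the 5 combined groups, each within 1 SE of 0. Over the 9 genes the median log2 change was 0.09, with 7 higher and 2 lower, beside a median of -0.01 over all genes tested. Against untreated cells alone the median was 0.22, with 8 higher and 1 lower, beside 0.00 over all genes. Dgat2 changed sign between these controls, from -0.14 to 0.22 (SE 0.33), and was not called against either. With the block its value against untreated cells was 0.25 (95% CI 0.02 to 0.47, adjusted p = 0.821 by edgeR).

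Apoc3, Apoa4 and Apoa5 lie side by side on chromosome 9, with 5.06 kb between Apoc3 and Apoa4 and 25.2 kb between Apoa4 and Apoa5. In GRCm39, Apoc3 spans chr9:46142527-46146934 on the minus strand, Apoa4 chr9:46151994-46154757 and Apoa5 chr9:46179931-46183217, both on the plus strand. Mttp is at chr3:137795612-137850729 (minus), Apob at chr12:8027648-8066835 (plus) and Dgat2 at chr7:98802491-98831991 (minus). All 10 are protein-coding.

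Promoter windows, from 250 before to 50 after the start of transcription, were read from RefSeq (build GRCm38.p6) for the 6 genes with an entry, Mttp, Apob, Apoa4, Apoa5, Pnpla2 and Pnpla3. Tm6sf2, Apoc3, Dgat1 and Dgat2 had no entry. ChREBP, the factor through which glucose metabolites are known to raise transcription in hepatocytes, binds paired E boxes. The windows were searched on both strands for the E box CACGTG and for a carbohydrate response element, a pair of such E boxes 5 bases apart with up to 2 mismatches, which can overlap a single E box. A DR1 site (AGGTCA repeated after 1 base, up to 2 mismatches), a FOXO element (GTAAACA) and a sterol element (TCACNCCAC) were searched too. Only Apoa5 held any of them, an E box. Apoa5 has 2 windows for different starts, and the E box begins at position -82 in the first and -107 in the second. E boxes occur in 7.15% of the 32851 windows searched, which did not cover every chromosome, and in 8.09% of genes with a window. By window, carbohydrate response elements occur in 0.953%, DR1 sites in 3.86%, FOXO elements in 3.65% and sterol elements in 1.24%. The first Apoa5 window is shown with its E box in capitals beside that of its neighbour Apoa4, which held none of these letters. Apoa4 had the smallest p of the set for GK alone against the 5 combined groups. The windows lie at chr9:46268358-46268657 and chr9:46240594-46240893 of GRCm38.p6, both on the plus strand.
Apoa5: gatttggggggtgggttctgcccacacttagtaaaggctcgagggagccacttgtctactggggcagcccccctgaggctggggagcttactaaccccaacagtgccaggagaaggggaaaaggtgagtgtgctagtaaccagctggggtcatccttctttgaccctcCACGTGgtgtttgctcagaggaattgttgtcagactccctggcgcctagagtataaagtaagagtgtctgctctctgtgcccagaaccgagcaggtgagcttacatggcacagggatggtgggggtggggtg
Apoa4: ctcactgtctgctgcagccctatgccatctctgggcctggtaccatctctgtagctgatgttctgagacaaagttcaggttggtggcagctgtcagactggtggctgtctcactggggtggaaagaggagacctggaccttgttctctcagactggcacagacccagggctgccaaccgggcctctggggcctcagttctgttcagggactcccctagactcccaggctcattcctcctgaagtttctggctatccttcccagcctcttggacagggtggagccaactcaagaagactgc

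Averaged over all 5 GKRP states, GK was compared with endogenous GK in 15 against 15 samples, the most precise of the comparisons of GK. Here 0.0903% of all genes were called and none of the 9. Tm6sf2 had a log2 change of 0.27 (SE 0.15), Apoc3 0.22 (SE 0.15), Apoa4 0.16 (SE 0.09) and Apob -0.22 (SE 0.12). The adjusted p for these 4 genes lay between 0.743 and 0.811 by edgeR's quasi-likelihood test. The log2 change of Apob by mouse was -0.51, -0.09 and -0.18, and the fitted value was -0.11 without 2 libraries of mouse 1. With the mouse as a block the change was 0.25 for Apoc3 (95% CI 0.10 to 0.41) and 0.29 for Tm6sf2 (0.02 to 0.55). It was 0.16 for Apoa4 (0.03 to 0.29), 0.16 for Apoa5 (0.01 to 0.32) and -0.23 for Apob (-0.47 to 0.00). The adjusted p of these 5 genes lay between 0.0934 (Apoc3) and 0.285 (Apob) by edgeR's test, and none was called.

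Dgat2 was the only gene of the set that was called anywhere, under the GKRP vectors at endogenous GK and only with the mouse as a block. It encodes a main acyltransferase of hepatocyte triglyceride synthesis. Untreated cells of mice 1, 2 and 3 had 201, 143 and 124 CPM, the lowest mean of the 10 conditions (156 ± 39.8 CPM, SD, n = 3). The vector hP gave 293, 157 and 180 CPM, and hL 290, 185 and 184 CPM. Values with mP were 299, 152 and 180 CPM, and with mL 284, 152 and 172 CPM. All 12 pairs of a vector and a mouse lay above the untreated cells of that mouse, whereas the groups overlapped when the mice were pooled.

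Without the mouse term, the 4 vectors together exceeded untreated cells with a log2 difference of 0.43 (SE 0.27, 95% CI -0.12 to 0.98, adjusted p = 0.753 by edgeR's quasi-likelihood test), and 1.89% of all genes were called in this comparison. With the mouse as a block the change was 0.41 (SE 0.09, 95% CI 0.23 to 0.59) and the adjusted p was 0.00417 by the same test, which made Dgat2 the 1 called gene of the 9. In that fit 3.10% of all genes were called as raised. The log2 rise by mouse was 0.54, 0.17 and 0.52, and it was smallest in mouse 2. The call was lost without mouse 1 (0.34, adjusted p = 0.0309 by edgeR, under the 1.3-fold limit) and without mouse 3 (0.33, adjusted p = 0.266 by edgeR), and remained without mouse 2 (0.53, adjusted p = 0.0200 by edgeR). An offset for transcript length left the change at 0.41 but raised the adjusted p to 0.521 in edgeR's test with the block.

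Each single vector gave a like value for Dgat2. In the block fit hP gave a log2 change of 0.40, hL 0.49, mP 0.40 and mL 0.35. The adjusted p of edgeR's quasi-likelihood test was 0.0429, 0.0101, 0.0349 and 0.0743 in that order, so that mL was not called. The share of all genes called as raised was 1.95% for hP, 2.51% for hL, 2.41% for mP and 2.49% for mL in the same fits. These 4 comparisons share the untreated samples. In either direction the share of all genes called was 2.46%, 2.97%, 3.31% and 3.16% in these fits, and 0.780%, 0.879%, 1.12% and 1.05% without the mouse term.

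GK alone, which also came with a vector, had 203, 160 and 180 CPM of Dgat2. That was level with untreated cells in mouse 1 and above them in mice 2 and 3. With a GKRP vector beside GK the value lay above that of GK alone in 8 of 12 pairs. The 4 pairs of mouse 1 stood highest, at 258 to 311 CPM, and the values of mouse 2 and mouse 3 ran from 159 to 187 CPM. The fitted log2 change against GK alone was 0.21 (SE 0.26, 95% CI -0.33 to 0.75) and 0.16 (SE 0.09) with the block, with an adjusted p of 0.990 and 0.305 by edgeR's quasi-likelihood test. In this comparison 1.61% of all genes were called, and none of the 9. Taken singly beside GK, hP, hL, mP and mL gave 0.107%, 0.00821%, 0.271% and 0.00821% of all genes called, with the block 0.797%, 0.312%, 4.62% and 0.0164%, and none of the 9 genes either.

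**Figure D3:**
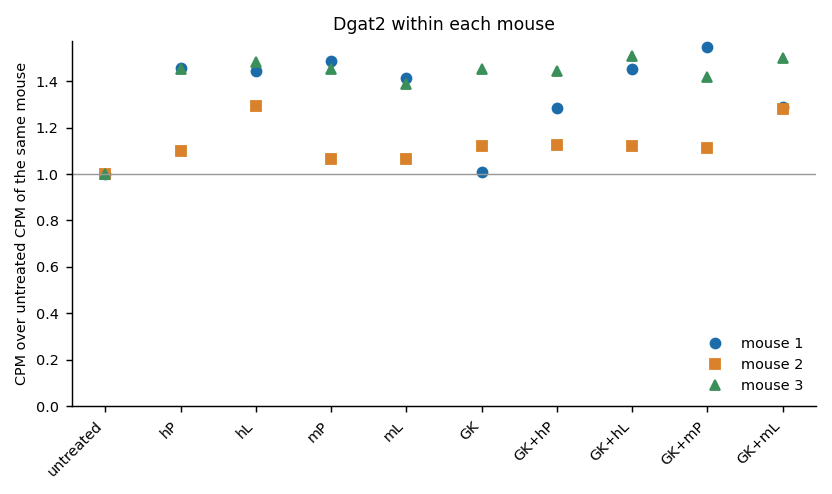
Dgat2 CPM divided by the untreated CPM of the same mouse (vertical axis, from 0) in the 10 conditions (horizontal axis), with a marker for each of 3 mice. All 12 points of the GKRP vectors at endogenous GK lie above the line at 1, and mouse 2 lies lowest among them.

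Dgat1, the gene of the other enzyme for the same step, showed no called change. It had 10.4, 14.4 and 9.91 CPM in untreated cells, and its condition means stayed between 11.1 CPM with mL and 13.4 CPM with GK and hP. The log2 change under the 4 GKRP vectors was 0.07 (SE 0.20, 95% CI -0.34 to 0.47). The difference between the 2 genes was not tested.

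Among the remaining genes the log2 change under the GKRP vectors at endogenous GK was -0.26 for Tm6sf2 (SE 0.25) and -0.13 for Apoa4 (SE 0.16), and the values of Mttp, Apob, Apoc3, Apoa5 and Pnpla2 lay between -0.05 and 0.08. Pnpla2, the lipase gene, had 52.8, 43.5 and 34.2 CPM in untreated cells and kept its order of mouse 1, mouse 2, mouse 3 in 9 of the 10 conditions. It averaged 39.8 CPM with mL, its lowest, and 51.1 CPM with GK and mP, its highest. Apoa5 was lowest in untreated cells at 21.5, 47.1 and 32.9 CPM and highest with GK and mL at a mean of 43.2 ± 14.9 CPM (SD, n = 3), with groups that overlapped.

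Whether GKRP altered the effect of GK was asked by the difference between the GK effect with and without the 4 GKRP vectors. No gene of all 12177 was called (0.00%) by edgeR's quasi-likelihood test, 178 had an unadjusted p under 0.05, and DESeq2 called 20. The 9 genes had log2 differences between -0.24 (Mttp) and 0.06 (Tm6sf2), and their 95% intervals together spanned -0.98 to 0.78. Mttp had 263, 401 and 435 CPM with GK alone in the 3 mice, and 262, 362 and 316 CPM with GK and hP. Cells with GK and mL had 311, 414 and 331 CPM of Mttp, above GK alone in mice 1 and 2. The log2 change of Mttp on adding GKRP vectors to GK was -0.19 (SE 0.19) as a mean over the 4 vectors, with -0.04, -0.04 and -0.47 in mice 1, 2 and 3. Single vectors gave fitted values from -0.30 (mP) to -0.06 (mL), and 9 of the 12 pairs of a vector and a mouse lay below GK alone. With the mouse as a block the mean was -0.19 (95% CI -0.36 to -0.02, adjusted p = 0.179 by edgeR). Single vectors then ran from -0.31 (mP, 95% CI -0.52 to -0.10, adjusted p = 0.0691 by edgeR) to -0.04 (mL, 95% CI -0.25 to 0.17). The block value of Mttp for the interaction was -0.23 (95% CI -0.48 to 0.01), and Mttp was not called in any of these.

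The study set the 446L form against the 446P form. Over the 4 pairs of vectors (human or mouse GKRP, with or without GK) 0.00821% of all genes were called and none of the 9. Differences of 446L minus 446P lay between -0.10 on the log2 scale for Pnpla2 and 0.15 for Apoa4 and Tm6sf2. The 95% intervals of the 9 genes together ran from -0.35 to 0.49. For Dgat2 the difference was 0.02 (95% CI -0.32 to 0.36) and for Mttp 0.07 (95% CI -0.18 to 0.32). A p that misses the threshold does not show that both forms act alike.

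With GK present the forms were also compared for each species. For the human forms 0.00% of all genes were called by edgeR's quasi-likelihood test, with 255 genes at an unadjusted p under 0.05 and 11 called by DESeq2. For the mouse forms 0.0164% were called. Mttp differed by 0.24 (SE 0.24) between the mouse forms, and by 0.27 with the mouse as a block (95% CI 0.05 to 0.48). Its adjusted p in that block fit was 0.461 by edgeR, and it was not called. Apob showed the largest differences of the 9 genes in both, at -0.40 for hL minus hP (SE 0.26) and 0.31 for mL minus mP (SE 0.26), and in opposite directions. Mouse 1 alone gave -1.08 and 1.67, while mice 2 and 3 lay between -0.23 and -0.08. Without the mouse 1 libraries of GK with hL and GK with mP the values were -0.17 and -0.03.

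Those 2 libraries stood apart in more than Apob. Apob has a very long message, and its effective transcript length in these files averaged 8633 bases, against 170 for Apoc3. Apob measured 1880 CPM with GK and hL and 1350 CPM with GK and mP in mouse 1, and 2970 to 4520 CPM in the other 28 samples. After centring log2 CPM within mouse, the median of the 89 genes with at least 8000 bases minus that of the 3395 genes with at most 1000 bases, among genes averaging at least 5 CPM, was -0.66 and -1.40 in these samples, and -0.14 to 0.39 in the others. Apoc3 stood 0.36 and 0.80 above its mean in mouse 1 on the log2 scale there, while the values of Apob were -0.82 and -1.30. Over the 30 samples, which share 3 mice, Apob followed this difference with r = 0.96 and rho = 0.91, and with r = 0.86 in the 28 other samples. Apoc3 ran the opposite way with r = -0.77, and with r = -0.36 without the 2 samples, and Apoa5 with r = -0.61 and r = -0.48. Dgat2 had r = -0.46. The part of transcript length in the differences above was not tested beyond these values.

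**Figure D4:**
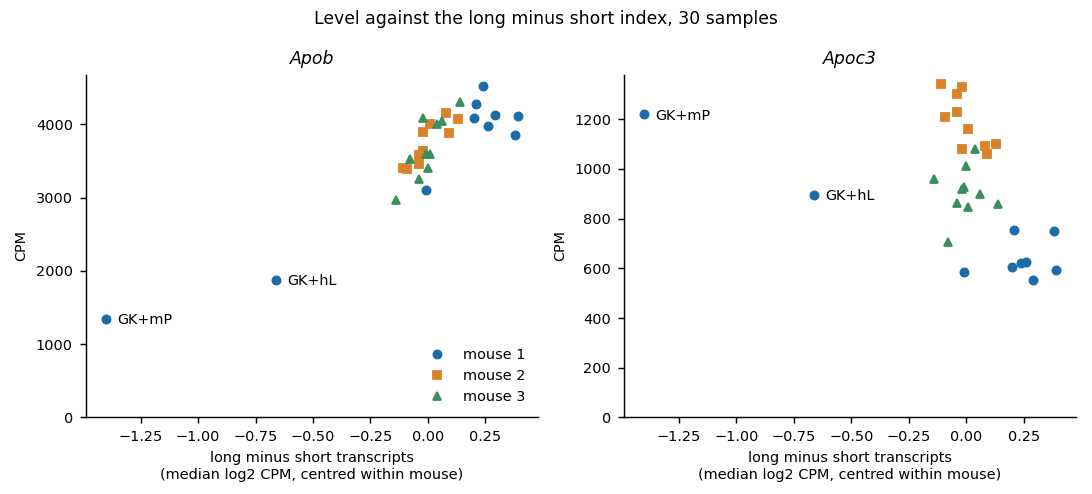
CPM of Apob (left) and Apoc3 (right) on the vertical axes, against the level of long minus short transcripts in the same sample (horizontal axes, log2, centred within mouse), with a marker for each of 30 samples. The mouse 1 samples GK+mP and GK+hL lie at -1.40 and -0.66 along the horizontal axis, away from the other 28, with Apob at 1350 and 1880 CPM.

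The pattern of each gene over the 30 samples was set against that of 9228 genes averaging at least 5 CPM, by Pearson correlation of log2 CPM centred within mouse. The nearest are named. Dgat2 was most like Phgdh (r = 0.86), Neu1 (0.84) and A430005L14Rik (0.83). Mttp was most like Adipor2 (0.83), Acaca (0.79) and Aplp2 (0.76), and Apoa4 like Bcl2l1 (0.85), Tkt (0.85) and Eno1 (0.83). Apob was most like Birc6 (0.98), Smg1 (0.97) and Herc1 (0.97), and Apoc3 like Cyp2d10, Rps14 and Cib1 (0.90 to 0.91). Apoa5 was most like Apoe, Gnmt and Lrg1 (0.88), and Pnpla2 like Ints15 (0.79). The highest values for Tm6sf2 and Dgat1 were 0.67 with Spint2 and 0.65 with Rnf215. Within the set the strongest pairs were Apob with Apoc3 (-0.74), Apob with Apoa5 (-0.67) and Apoc3 with Apoa4 (0.61). These samples share mice and libraries, so the correlations are descriptions.

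Other genes of the same pathways were counted from 6 lists with 113 genes, of which 104 were tested. Counts for GK are given for 5 of the lists. With GK alone against the 5 combined groups, 0 of 22 tested genes of VLDL assembly and export were called, 0 of 12 other apolipoproteins and 0 of 16 genes of triglyceride synthesis. Of 22 lipases, cofactors and lipid droplet proteins 1 was called as raised, as was 1 of 13 genes of plasma triglyceride clearance, where 0.427% of all genes were called. The medians of these 5 lists lay between -0.05 and 0.07 on the log2 scale, beside -0.01 over all genes tested.

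Those genes were Ddhd2 and Angptl8. Angptl8 encodes a secreted inhibitor of lipoprotein lipase, and had a log2 rise of 2.43 (SE 0.27, adjusted p = 5.70e-06 by edgeR's quasi-likelihood test). Ddhd2, which encodes a triglyceride and phospholipid hydrolase, rose by 1.12 (SE 0.17, adjusted p = 0.000388 by edgeR). Adding the GKRP vectors to GK lowered both genes and no other of the 5 lists, where 1.61% of all genes were called, with log2 changes of -1.70 for Angptl8 (adjusted p = 0.000529 by edgeR) and -0.83 for Ddhd2 (adjusted p = 0.0161). Both comparisons use the samples with GK alone. Mttp, Apoa4, Apoc3 and Tm6sf2 had differences of -0.19, -0.21, -0.06 and -0.20 in the latter.

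**Figure D5:**
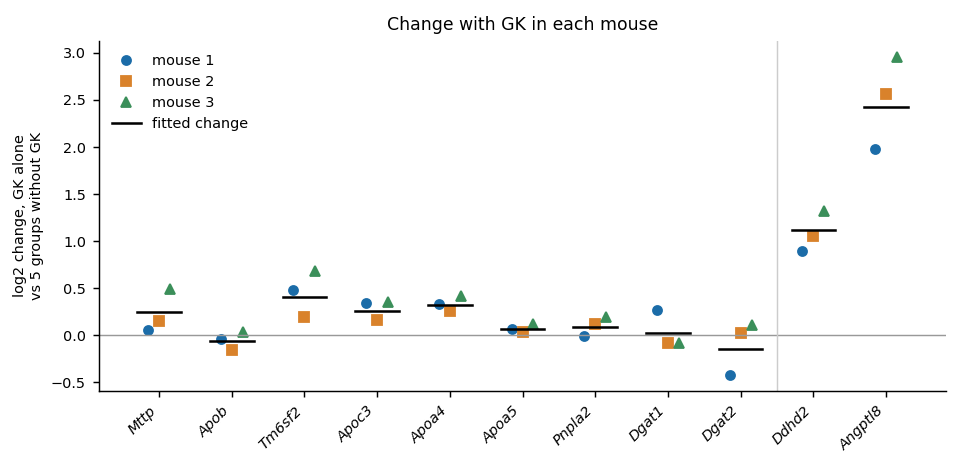
Log2 change with GK alone against the 5 groups without GK (vertical axis) for the 9 tested genes and, right of the grey line, Ddhd2 and Angptl8 (horizontal axis), with a marker for each of 3 mice and a bar for the fitted change. The fitted changes of the 9 genes lie between -0.14 and 0.41, and those of the other genes at 1.12 and 2.43.

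At endogenous GK the 4 GKRP vectors against untreated cells gave no called gene of the 104 by edgeR without the mouse term, with 7 at an unadjusted p under 0.05. With the mouse as a block 4 were called, or 3.85%, which is near the 4.16% of all genes called in that fit and is no result about these lists. Acsl3, an acyl-CoA synthetase gene that serves triglyceride synthesis, had a log2 rise of 0.45 (adjusted p = 0.00864 by edgeR). Mlxipl, the gene of the glucose-responsive factor ChREBP, was raised by 0.57 (adjusted p = 0.00619), and Ppargc1b, a coactivator gene, by 1.46 (adjusted p = 0.0243). Angptl4, another lipoprotein lipase inhibitor, was lowered, with a log2 change of -0.71 (adjusted p = 0.000629). In the same fit Dgat2 was raised by 0.41.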

How the data were processed

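RNA of 36 hepatocyte cultures from 3 mice was sequenced, with an RNA integrity number above 6. Per the labels and the study's methods, the authors quantified untrimmed reads with Salmon 1.4.0 against mouse Gencode release 26 (GRCm39). The deposited files hold estimated counts and TPM per transcript, not normalized between samples. Estimated counts were summed per gene by release 39 identifiers (98.8% of 139225 transcripts matched) and rounded. TPM, deposited by the authors, served to order genes by level and, beside CPM, to give the ratio of the highest to the lowest condition mean. No test was run on TPM values. The 2 cultures of a mouse differed beyond counting noise and were summed, giving 30 samples.

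Tests used edgeR 4.0.16 in R 4.3.3 (TMM scaling, default low-count filter by condition, quasi-likelihood test, Benjamini-Hochberg adjustment) on all samples. No term for the mouse was included, and most comparisons were fitted with 10 condition means. For GK alone against the combined groups with endogenous GK, those groups were pooled into a common mean. The same pooled fit served each single GKRP vector with GK against GK alone. The limits for a call follow the study. The mouse as a block and DESeq2 1.42.0 were among the alternatives. The block pairs cultures of the same animal, whose deviations from the condition means correlated by 0.223 on average (-0.149 between mice). The code was tested on simulated data.

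The 10 genes and all lists were chosen with earlier results of these data known. Named were the 10 genes, other pathway genes that were called (at most 6 per comparison), Gckr, Pklr and Txnip as checks, and the 3 genes most like each of the 10. Results of the regulators list in comparisons with GK are not reported here. Libraries held a median of 5980276 reads. All came from 3 animals, and the p-values without the mouse term treat samples of the same animal as independent. Those of the block fits set a change against the variation left after condition and mouse, pooled over all conditions. They do not rest on the spread of that change alone across the 3 animals.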

Additional observations from a re-analysis of the deposited data

Results flagged for a closer look

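Among the 20 groups of 6 cultures (10 genes in untreated cells and in cells with GK alone), 2 held a culture far from the others. Chance would flag about 1 group in 20 if the cultures were independent. These were 2 cultures from each of 3 mice, so that rate need not hold here. Apob measured 2650 CPM in a culture of mouse 2 with GK alone. The other 5 cultures of that condition lay between 3700 and 4110 CPM, so that the gap was 0.717 of the whole range. Pnpla3 measured 0.730 CPM in a culture of mouse 3 with GK alone against 0 to 0.226 CPM in the others, a gap of 0.690 of the range, and this gene had at most 6 reads in any library.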

How the results depend on the processing

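Of the 153 pairs of a gene and a comparison, 35 differed from 0 by at least 1 SE. They were recomputed under 21 alternatives (12 planned, 9 chosen after seeing the data), which gave 735 values. Of these 700 kept direction and call, 22 passed the threshold only under the alternative and 13 changed sign. The 118 pairs within 1 SE of 0 were not followed for sign. Without a mouse term none of the 9 genes was called under any alternative. With the mouse as a replicate block the count called went from 0 to 1 (Dgat2) in untreated cells compared with the 4 GKRP vectors averaged and singly. It was also 1 for both with the block plus DESeq2 (adjusted p = 0.000111 for the mean), RLE scaling (adjusted p = 0.00456 in edgeR), omission of the mouse 1 libraries GK+hL and GK+mP (adjusted p = 0.00250 in edgeR) or of the mouse 3 GK culture with more Gckr (adjusted p = 0.00464 in edgeR). With the block and each mouse left out in turn the counts ran from 0 to 1, and with the block and a transcript length offset the count was 0. The pairing changed no other call of the 9 genes.

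Signs turned for values that were not called, and the cause was not tested. With the length offset Apoc3 with GK alone went to 0.00 (0.00 with the block), Apob in hL against hP with GK to 0.10 (0.07), Apoa4 in hP against untreated to 0.19 (0.22) and Apoa4 in mP against untreated to 0.06 (0.09). Apob in mL against mP with GK was -0.03 without the 2 mouse 1 libraries (-0.07 with the block), and -0.20 to 0.69 with each mouse left out. Pnpla2 with GK over the 5 GKRP states was 0.00 to 0.22 with each mouse left out. TPM in place of CPM moved the median ratio of the highest to the lowest condition mean over the 10 genes from 1.35 to 2.08.

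Counts over all genes depended on the setting far more. They ran from 8 to 364 for GK alone against the 5 combined groups (52 as reported), 0 to 106 against untreated (1), 1 to 47 over the 5 GKRP states (11), 39 to 586 for the GKRP vectors (230), 17 to 590 for the GKRP vectors with GK (196), 0 to 45 for the interaction (0), 0 to 50 for hL against hP (0), 0 to 89 for mL against mP (2) and 0 to 93 for 446L against 446P (1). Single vectors gave 24 to 815 against untreated (181) and 1 to 859 with GK (35).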
